A study of Mus musculus with 8 samples.

Results

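The apolipoprotein L genes were followed in 8 mouse cecal tumors profiled by RNA sequencing. The members are 7 genes of this family, Apol6, Apol7a, Apol7b, Apol7c, Apol7e, Apol9a and Apol9b, taken by their symbols from a table of 34586 symbols. Apol6 was selected on its lower FPKM in the tamoxifen than in the vehicle tumors, so its values are given as a description with no test. The other 6 members came in by name. Another 7 symbols of the family in the table are given for comparison, and all but 2 of the 14 symbols lie on chromosome 15.

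The tumors are a mouse model of GIST, the gastrointestinal stromal tumor, which arises in the gut wall and is driven by the receptor tyrosine kinase Kit. All mice were C57BL/6 and carried the mutant allele Kit V558Delta/+ together with Etv1 flox/flox, and both copies of Rosa26 held CreERT2, a Cre recombinase that tamoxifen activates. The 4 vehicle tumors and the 4 tamoxifen tumors therefore share one genotype, and the labels give no dose, time or age. Rosa26 is active in most cell types, so recombination is not limited to the tumor cells, and an explanted tumor also holds epithelium, vessels and immune cells. The labels do not say whether each replicate is another mouse, and the p-values then cover only the spread between these samples, which may be technical.

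Apolipoprotein L proteins are lipid-binding proteins with amphipathic helices, and most of them act inside the cell. The best known is the human protein APOL1, a secreted factor on high-density lipoprotein that lyses trypanosomes, which has no mouse counterpart. The family has expanded separately in mice and primates, and many of its genes are induced by interferons. Interferons signal through cell-surface receptors and Jak kinases to transcription factors that bind interferon response elements in the promoters of their target genes.

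Values are gene-level FPKM, a fragment count scaled by transcript length and by library size, so levels of different genes can be compared per length. Absolute depth is unknown. From the value of 1 read in low genes, relative depth of the libraries spanned 1.40-fold, and 14176 to 14841 symbols per library reached 1 FPKM. Summed FPKM was uneven, from 901764 in vehicle replicate 3 to 1662240 in vehicle replicate 1. Etv1, the floxed gene, measured 34.6, 51.1, 40.4 and 38.6 FPKM in vehicle replicates 1 to 4 and 34.9, 19.7, 31.4 and 17.4 in tamoxifen replicates 1 to 4, a difference that did not pass (log2 fold change -0.70, SE 0.24, limma adjusted p = 0.13, or 0.049 to 0.554 in the alternatives). Tamoxifen replicate 1 lay within the vehicle range. Of the 6 markers of GIST and its normal relatives, the interstitial cells of Cajal, none was at 0 and none passed. Their summed level was 1166 to 1727 FPKM in vehicle and 934 to 1355 FPKM in tamoxifen tumors.

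Similar members limit what single values can show. Apol9a and Apol9b share 919 of 933 coding bases (98.5% identity), and Apol7b and Apol7e share 1098 of 1110 (98.9%). Apol7c is 88.8% identical to Apol7b, and Apol7a 78.5% to 80.2% identical to the other 3 Apol7 members. Positions in gaps count as not identical in all these values. The coding sequence of Apol7a is longer, 1257 bases against 1110, which lowers its percentages, and 987 to 1008 positions were identical. Apol6 stands apart, with 44.4% to 49.2% identity to each other member. The first 150 coding bases of Apol9a and Apol9b are shown because they differ at 1 base, in capitals, so a read from this stretch that misses that base fits both genes (GENCODE M21 transcripts, GRCm38, counted from the A of the start codon).
Apol9a: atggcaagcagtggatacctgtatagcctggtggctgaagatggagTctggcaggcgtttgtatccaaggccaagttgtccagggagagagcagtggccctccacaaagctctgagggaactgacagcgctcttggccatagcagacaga
Apol9b: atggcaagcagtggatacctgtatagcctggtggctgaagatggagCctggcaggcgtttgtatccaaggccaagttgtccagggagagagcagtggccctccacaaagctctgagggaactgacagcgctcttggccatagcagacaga

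Sharing was also counted over whole protein-coding transcripts. Of all 50-base stretches, 55.3% of those of Apol9a recurred in another gene, each of them in Apol9b, and 52.3% of those of Apol9b, each of them in Apol9a. For Apol7e and Apol7b, 78.5% and 74.9% recurred in some other gene, mostly in each other. The share was 25.6% for Apol7c and 15.5% for Apol7a, and 2.27% for Apol6. With 100-base stretches the share was 40.0% for Apol9a, 36.7% for Apol9b and 63.9% for Apol7e, and 0 of 3483 stretches of Apol6 recurred elsewhere. The labels give neither the read length nor the way in which reads that fit several genes were placed.

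Promoter windows from RefSeq (GRCm38.p6, 250 bases before to 50 bases after the start of transcription) were found for 6 of the 7 members, all except Apol6. The core of the interferon response element, a pair of GAAA copies set 2 bases apart on either strand, occurred in the windows of 4 members, Apol7c, Apol7e, Apol9a and Apol9b, each with 2 overlapping matches. It occurred in 3.44% of all 32851 windows. The gamma-activated sequence TTCNNNGAA, present in 8.3% of all windows, and the kappa B site, present in 8.46%, matched in none of the members' windows. The windows below show 1 start for each gene, the Apol9 pair and Apol7e with matches beside Apol7b and Apol7a without. Matches to the interferon response element are in capitals. The window of Apol7c, also with 2 matches, is not printed. A link between matches and changes in level was not tested. GENCODE and RefSeq coordinates are of another build than the deposited table and are not compared with it.
Apol9a, chr15:77411031-77411330, minus strand: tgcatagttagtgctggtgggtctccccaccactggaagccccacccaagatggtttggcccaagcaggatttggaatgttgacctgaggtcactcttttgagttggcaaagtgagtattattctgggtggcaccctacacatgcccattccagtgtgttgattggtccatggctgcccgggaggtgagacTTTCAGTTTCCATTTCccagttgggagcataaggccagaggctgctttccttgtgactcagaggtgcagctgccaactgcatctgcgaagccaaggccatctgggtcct
Apol9b, chr15:77728822-77729121, plus strand: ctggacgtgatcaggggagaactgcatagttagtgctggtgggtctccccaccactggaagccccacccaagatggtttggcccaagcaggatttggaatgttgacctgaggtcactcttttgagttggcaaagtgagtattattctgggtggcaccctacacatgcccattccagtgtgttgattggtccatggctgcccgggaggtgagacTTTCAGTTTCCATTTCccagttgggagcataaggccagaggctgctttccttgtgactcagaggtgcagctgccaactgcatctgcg
Apol7e, chr15:77698639-77698938, plus strand: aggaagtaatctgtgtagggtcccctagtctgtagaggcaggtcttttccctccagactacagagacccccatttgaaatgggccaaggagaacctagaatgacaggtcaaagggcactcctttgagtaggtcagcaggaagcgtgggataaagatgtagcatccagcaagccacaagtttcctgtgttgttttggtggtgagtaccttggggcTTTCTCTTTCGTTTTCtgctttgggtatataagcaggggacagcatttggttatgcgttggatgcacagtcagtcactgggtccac
Apol7b, chr15:77447411-77447710, minus strand: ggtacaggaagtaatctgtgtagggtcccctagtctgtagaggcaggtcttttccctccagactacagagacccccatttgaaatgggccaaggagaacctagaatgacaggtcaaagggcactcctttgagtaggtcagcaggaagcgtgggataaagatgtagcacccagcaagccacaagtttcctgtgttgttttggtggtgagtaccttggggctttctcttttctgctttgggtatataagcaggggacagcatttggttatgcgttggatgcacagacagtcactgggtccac
Apol7a, chr15:77399061-77399360, minus strand: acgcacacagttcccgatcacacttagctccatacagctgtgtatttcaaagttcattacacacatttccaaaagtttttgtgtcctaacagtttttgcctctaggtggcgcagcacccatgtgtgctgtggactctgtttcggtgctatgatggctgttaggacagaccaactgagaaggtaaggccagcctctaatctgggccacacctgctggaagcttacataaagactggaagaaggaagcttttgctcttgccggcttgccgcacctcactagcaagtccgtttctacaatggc

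The windows of Apol9a and Apol9b were identical over the 278 bases in which they overlap, with the first match 59 bases before the printed start in Apol9a and 37 in Apol9b. RefSeq gives 2 starts for each of the pair, and from the other start the first match lies 105 bases before it in Apol9a and 86 in Apol9b. The windows of Apol7e and Apol7b were identical at 293 of 300 aligned positions, with 2 mismatches and 1 gap of 5 bases. Apol7e carried 2 matches, 36 and 30 bases before the start, where Apol7b carried none. Among the other family genes with a window, Apol10a, Apol10b, Apol11a and Apol11b also held the core, and Apol8 and Apold1 did not. The gamma-activated sequence occurred in 4 of these other genes, Apol10a, Apol11a, Apol11b and Apold1. A match describes letters only and shows no binding.

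Apol6, whose human counterpart has been described as a pro-apoptotic protein, was by far the most abundant member. It measured 235, 566, 347 and 501 FPKM in vehicle replicates 1 to 4 and 61.7, 49.9, 87.6 and 90.1 FPKM in tamoxifen replicates 1 to 4. The groups did not overlap, and the lowest vehicle value was vehicle replicate 1. The means were 412 ± 150 and 72.3 ± 19.7 FPKM (SD, n = 4 each), 5.70-fold lower in tamoxifen tumors, with a log2 fold change of FPKM + 1 of -2.46 (SE 0.31). By mean level Apol6 ranked 182 of 15023 tested genes in vehicle tumors and 1429 in tamoxifen tumors. Its row (ENSMUSG00000033576, chromosome 15, 76845919 to 76887537 in mm9) has a locus shared with the myoglobin gene Mb, which measured 0.136 to 0.864 FPKM. In bulk tumors, fewer cells that express a gene and less RNA per cell cannot be told apart.

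**Figure D1:**
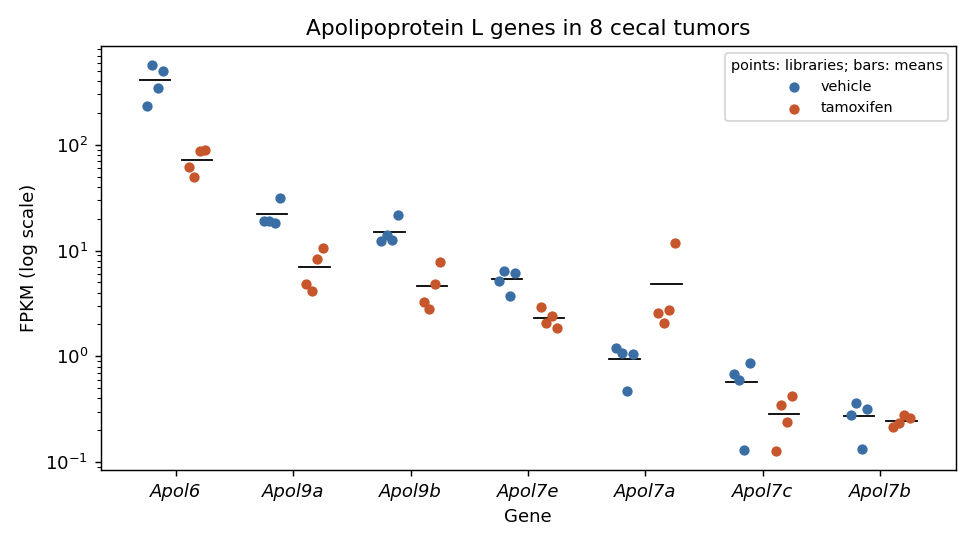
FPKM of the 7 members on a log axis, with a point for each library and a bar for the mean of each group of 4 libraries. Apol6 lies above all other members in both groups, and Apol7a is the member whose tamoxifen points lie above its vehicle points without overlap.

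Apol9a and Apol9b, cytosolic proteins known as interferon-induced genes, fell in tamoxifen tumors. Apol9a (ENSMUSG00000068246 in the table, chromosome 15, 77234220 to 77241483 in mm9) measured 19.1, 19.1, 18.4 and 31.6 FPKM in vehicle replicates 1 to 4 and 4.81, 4.12, 8.27 and 10.7 in tamoxifen replicates 1 to 4. Vehicle replicate 4 was highest and the groups did not overlap. Means were 22.05 ± 6.35 and 6.96 ± 3.06 FPKM, a log2 fold change of -1.58 (SE 0.29) with a limma adjusted p of 0.0224. Apol9b (ENSMUSG00000057346 in the table, 77559502 to 77566811) measured 12.4, 14.1, 12.5 and 21.5 FPKM in vehicle and 3.25, 2.80, 4.83 and 7.76 FPKM in tamoxifen replicates 1 to 4. The order of the libraries was close to that of Apol9a, again with vehicle replicate 4 highest and no overlap. Means were 15.1 ± 4.34 and 4.66 ± 2.25 FPKM, a log2 fold change of -1.56 (SE 0.29) with a limma adjusted p of 0.0219. Vehicle replicate 4 and tamoxifen replicates 3 and 4 have sample identifiers of a higher number range, unevenly split between the groups. They were the highest libraries of their groups for both genes. With this range as a covariate the log2 fold change was -1.79 for Apol9a and -1.75 for Apol9b.

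The ratio of Apol9a to Apol9b stayed between 1.36 and 1.71 in all 8 libraries while their sum ran from 6.92 to 53.1 FPKM. With so many shared stretches the pair cannot be counted as 2 separate results. Their sum averaged 37.2 ± 10.7 FPKM in vehicle against 11.6 ± 5.26 FPKM in tamoxifen tumors, 3.20-fold lower. Both calls were lost when any 1 of 5 libraries was left out, vehicle replicates 2, 3 and 4 and tamoxifen replicates 1 and 2, with adjusted p up to 0.0596 for Apol9a and 0.0618 for Apol9b. The table and GENCODE M21 attach the identifiers of the pair the other way round, while the order of the 12 family genes along chromosome 15 is the same in both, so the names follow position here.

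Apol7e fell and its close copy Apol7b was near the lower limit of the table. The 2 genes share most of their 50-base stretches and the placement of shared reads is unknown, so their values cannot be fully separated. Apol7e (ENSMUSG00000071716, 77529312 to 77549716) measured 5.19, 6.40, 3.75 and 6.11 FPKM in vehicle and 2.90, 2.07, 2.42 and 1.86 FPKM in tamoxifen replicates 1 to 4, with no overlap. Means were 5.36 ± 1.19 and 2.31 ± 0.457 FPKM, a log2 fold change of -0.93 (SE 0.18) with a limma adjusted p of 0.0243. The call was lost without vehicle replicate 1, 2 or 4 or tamoxifen replicate 2 (adjusted p up to 0.0758), and with libraries scaled to the same total (0.146). Apol7b (ENSMUSG00000068252, 77252640 to 77292396) measured 0.134 to 0.365 FPKM in vehicle and 0.212 to 0.276 FPKM in tamoxifen tumors, with overlapping groups. The deposited lower confidence bound of Apol7b was 0 in all 8 libraries in the authors' deposited table. It lay under the filter of a mean of 1 FPKM, and in the fit with no filter, where 2.31% of genes passed, its log2 fold change was -0.03 (adjusted p = 0.824).

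Apol7c, a member described in activated dendritic cells, was also under the filter. It measured 0.675, 0.591, 0.131 and 0.865 FPKM in vehicle replicates 1 to 4 and 0.127, 0.344, 0.241 and 0.417 FPKM in tamoxifen replicates 1 to 4 (ENSMUSG00000044309, 77355297 to 77363745). Vehicle replicate 3 lay among the tamoxifen values. The log2 fold change with no filter was -0.27 (SE 0.15, adjusted p = 0.406).

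Apol7a was the only member with a higher mean in tamoxifen tumors, and it did not pass. It measured 1.19, 1.08, 0.465 and 1.05 FPKM in vehicle replicates 1 to 4 and 2.55, 2.07, 2.71 and 11.9 FPKM in tamoxifen replicates 1 to 4 (ENSMUSG00000010601, 77218647 to 77229540). The groups did not overlap, but tamoxifen replicate 4 stood far above the other 3. Means were 0.946 ± 0.326 and 4.81 ± 4.74 FPKM, a log2 fold change of 1.31 (SE 0.44) with a limma adjusted p of 0.12. Without tamoxifen replicate 4 the log2 fold change was 0.84 with an adjusted p of 0.0536, against up to 0.274 without another library.

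Within the Apol7 members the shares of Apol7a and Apol7e in the summed FPKM are given as a description with no test. They restate the higher mean of Apol7a, which did not pass, and the fall of Apol7e. Apol7a made up 10.4% to 16.2% of the sum of Apol7a, Apol7b, Apol7c and Apol7e in vehicle and 43.9% to 82.5% in tamoxifen tumors. The 82.5% was tamoxifen replicate 4, and the next highest share was 48.0%. Apol7e made up 70.8% to 83.7% and 12.9% to 50.1%. The sum itself was 7.15 ± 1.85 FPKM in vehicle and 7.65 ± 4.55 in tamoxifen tumors, with overlapping ranges.

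In all, 3 of the 4 tested members other than Apol6 fell, none rose and 1 did not pass, beside 3.07% of all 15023 tested genes that fell, 2.38% that rose and 5.45% that passed in either direction. The 3 that fell include the Apol9a and Apol9b pair, so they are not 3 independent results. The groups did not overlap for 4 of these 4 members, 3 lower, again with the Apol9 pair among them, and 1 higher in tamoxifen tumors. The 1 higher, Apol7a, had a vehicle mean under 1 FPKM (0.946) and met the filter through its tamoxifen mean (4.81). Its place among the tested genes thus depends on the difference itself. Among tested genes with all 8 values, 7.72% did not overlap and were lower, 7.38% did not overlap and were higher, and 15.1% did not overlap in either direction. The precision of single values was low in the authors' deposited table. Its confidence bounds overlapped in 7 of the 16 pairs of a vehicle and a tamoxifen library for Apol6, in 11 for Apol9a, 9 for Apol9b, 12 for Apol7a and all 16 for Apol7e.

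The order of the levels was Apol6, Apol9a, Apol9b, Apol7e, Apol7a, Apol7c and Apol7b in vehicle tumors. There the ranges of Apol9a and Apol9b overlapped, as did those of Apol7a and Apol7c and of Apol7c and Apol7b, and the other neighbours did not overlap. In tamoxifen tumors Apol7a moved up by mean to between Apol9a and Apol9b, but its level was above that of Apol9b in 1 of 4 libraries only. Apol6 held 85.8% to 93.1% of the summed FPKM of the members in vehicle and 73.3% to 82.4% in tamoxifen tumors. The ratio of Apol6 to the Apol9 pair was 7.46 to 17.0 in vehicle and 4.89 to 7.66 in tamoxifen tumors, ranges that overlap. Since Apol6 was selected on its lower FPKM in tamoxifen tumors, the selection favors a lower share and ratio there, and neither is a separate result.

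Of the other 7 symbols of the family, 3 were tested, and Apol10b alone passed. Apol10b fell, with means of 4.18 ± 1.39 and 1.20 ± 0.147 FPKM and a log2 fold change of -1.20 (SE 0.20, limma adjusted p = 0.0161). It measured 3.08, 4.81, 2.99 and 5.84 FPKM in vehicle and 1.26, 1.23, 0.985 and 1.32 FPKM in tamoxifen replicates 1 to 4, and the call was lost without vehicle replicate 2 (adjusted p = 0.055). Its neighbour Apol10a measured 7.53 ± 3.30 and 4.92 ± 1.57 FPKM (log2 fold change -0.49, adjusted p = 0.344). Apold1, an endothelial gene on chromosome 6 and a more distant relative, measured 1.32 ± 0.274 and 1.91 ± 0.419 FPKM (log2 fold change 0.32, adjusted p = 0.297). Apol8 measured 0.237 to 0.561 FPKM, Apol11b 0.0295 to 0.290 FPKM and Apol11a at most 0.0469 FPKM, all under the filter. Apol7d is placed on chromosome 1 in the table, at a locus that overlaps the fibronectin gene Fn1 (74.5 to 432 FPKM), so its 0.346 to 1.47 FPKM are uncertain.

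**Figure D2:**
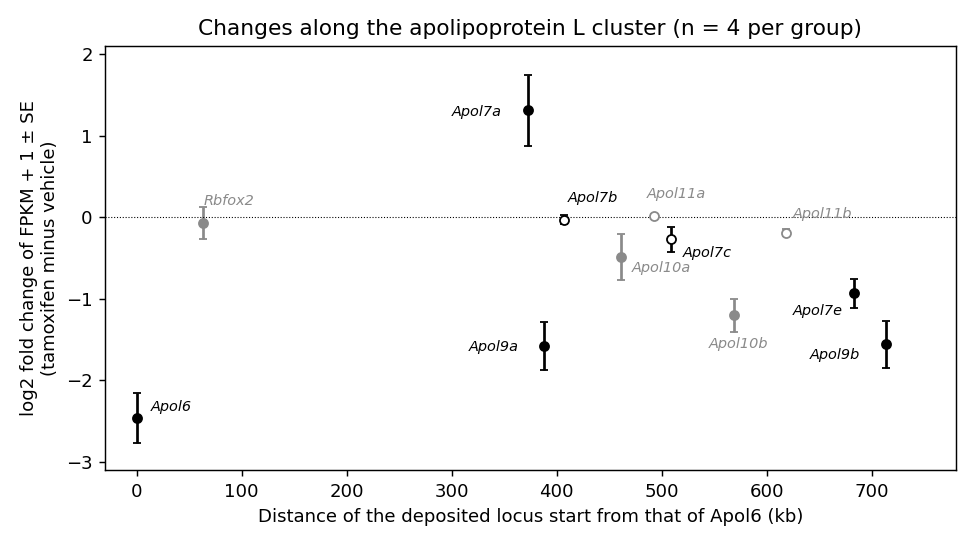
Log2 fold change of FPKM + 1 (tamoxifen minus vehicle) with its SE against the distance of each locus start from that of Apol6, in kb, with members in black, other genes in grey and open points for genes under the filter. Apol6, Apol9a, Apol10b, Apol7e and Apol9b lie near or below -0.93, while Apol7a lies at 1.31 and Rbfox2 at -0.07.

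The members span 721 kb of chromosome 15, from 76845919 to 77566811 in mm9. The table has 20 rows in this span, 11 of the family and 9 of other genes. The highest of those 9, the RNA-binding protein gene Rbfox2, lies between Apol6 and Apol7a. It measured 34.4 ± 4.05 FPKM in vehicle and 33.1 ± 7.71 FPKM in tamoxifen tumors over 3 libraries each, since 1 value per group is marked as failed and was left out (log2 fold change -0.07, limma adjusted p = 0.864). Apol7a, whose higher mean did not pass, lies next to Apol9a, which fell. Over the whole span the tested genes did not share one direction. Apol7a (1.31) and 1700109K24Rik (0.22) had positive log2 fold changes, and neither passed. From Apol9a to Apol9b all tested genes had a negative change. The values were -1.58 for Apol9a, -0.49 for Apol10a (which did not pass), -1.20 for Apol10b, -0.93 for Apol7e and -1.56 for Apol9b. A cause that acts on the region was not tested.

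The 8 genes whose pattern over the 8 libraries was most like that of Apol6 were H2-Eb2, Gbp10, Cxcl11, Igtp, Gbp6, Dab1, Gbp2 and Art2b. Likeness was the root-mean-square distance between log2(FPKM + 1) profiles, each centred on its mean, and ran from 0.21 for H2-Eb2 to 0.45 for Art2b against a median of 1.32 over 12628 candidate genes. Since Apol6 was chosen for its difference between the groups, genes near it share that difference by construction. H2-Eb2, an MHC class II gene, averaged 15.6 ± 4.63 FPKM in vehicle and 2.11 ± 0.824 in tamoxifen tumors. Gbp10, Gbp6, Gbp2 and Igtp encode interferon-induced GTPases, and Cxcl11 is an interferon-induced chemokine. Nearest to Apol9a were Tmem158, Isg15, Gbp2 and H2-Oa (0.19 to 0.21), and nearest to Apol9b Gbp2, Fam64a, Zbp1 and Isg15 (0.18 to 0.21). Apol9a and Apol9b lay at 0.09 from each other, Apol6 at 0.55 to 0.56 from either and Apol7a at 1.98 from Apol6.

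**Figure D3:**
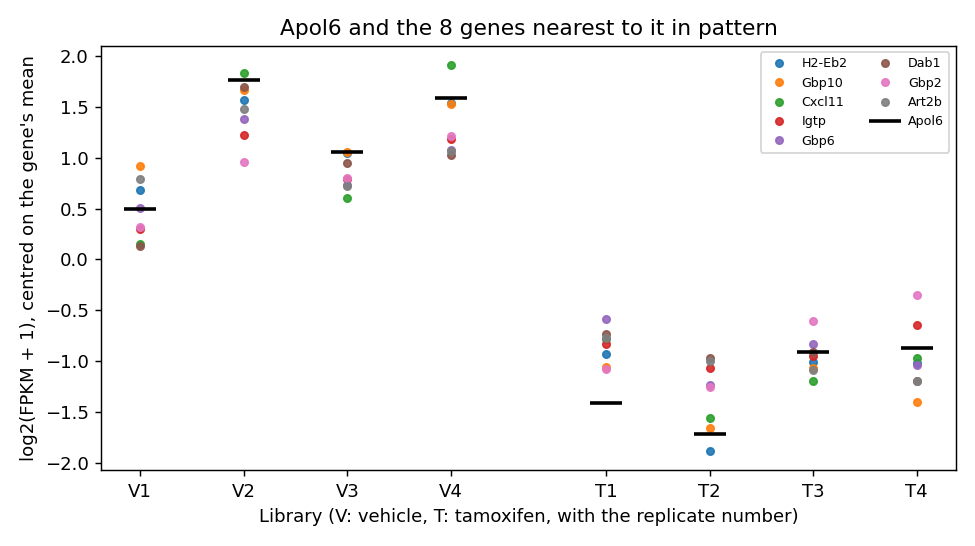
Log2(FPKM + 1) of Apol6 (black bars) and of the 8 genes nearest to it in pattern (points), each centred on its mean over the 8 libraries. In Apol6 vehicle replicate 1 is the lowest vehicle library and tamoxifen replicate 2 the lowest of all, and most of the 8 genes follow that order.

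Tested interferon pathway genes fell in 33.3% of cases, beside 3.07% of all tested genes. Of 21 tested ligand, receptor and signalling genes 7 fell, none rose and 14 did not pass, 6 had a positive change, and the list had a median log2 fold change of -0.45 beside 0.01 for all tested genes. Irf9, a transcription factor that acts at interferon response elements, fell by 0.89 on the log2 scale, with means of 78.8 ± 4.07 and 42.4 ± 5.17 FPKM (limma adjusted p = 0.00882). Nlrc5, the activator of MHC class I genes, fell too, with means of 69.9 ± 8.99 and 35.1 ± 3.76 FPKM (adjusted p = 0.00952). Scaling to the same total ended both calls (adjusted p = 0.2 and 0.165). The replicate block also ended that of Nlrc5. Irf1, a transcription factor induced by interferon gamma, measured 86.5, 85.7, 73.4 and 225 FPKM in vehicle replicates 1 to 4 and 62.7, 58.1, 73.2 and 98.3 FPKM in tamoxifen replicates 1 to 4 (adjusted p = 0.395). Ifng itself was under the filter, at 0.552 to 1.32 FPKM in vehicle and 0.206 to 0.971 FPKM in tamoxifen tumors, with overlapping groups.

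Among 19 tested interferon gamma target genes 15 fell (78.9%), none rose and 4 did not pass (median -1.36). Among 22 type I interferon antiviral genes 12 fell (54.5%), none rose and 10 did not pass (median -1.11). The share of all tested genes that fell was 3.07%. The chemokine gene Cxcl9 fell by 3.55 on the log2 scale, with means of 500 ± 115 and 41.2 ± 5.77 FPKM (limma adjusted p = 0.00018). The GTPase genes Gbp6 and Igtp fell, with log2 fold changes of -1.85 and -1.75 (adjusted p = 0.0066 and 0.0074). The antiviral genes Oas2, Xaf1 and Ddx58 fell, with log2 fold changes of -1.76, -1.42 and -1.15 (adjusted p = 0.00426, 0.0106 and 0.0118), and the calls of Xaf1 and Ddx58 were lost with the replicate block or scaling to the same total. Summed over the 19 genes with a value in all 8 libraries, which leaves out Irgm1 (marked as failed in vehicle replicates 2, 3 and 4), the gamma targets measured 3553 to 5905 FPKM in vehicle and 1355 to 1916 FPKM in tamoxifen tumors. Vehicle replicates 2 and 4, the highest for Apol6, were also the highest for this sum, while for the Apol9 pair only vehicle replicate 4 (53.1 FPKM) stood above the other vehicle libraries (30.9 to 33.3 FPKM).

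T and NK cell markers fell in 72.7% of cases and dendritic cell markers in 41.7% in the tamoxifen tumors, as Apol9a, Apol9b and Apol7e did. The share of all tested genes that fell was 3.07%. All markers of both lists had a negative change, and no macrophage marker passed. Among those that fell, Xcr1, Cd209a, Prf1 and Ncr1 had tamoxifen means under 1 FPKM (0.495, 0.152, 0.947 and 0.486). They met the filter through their vehicle means (2.55, 1.88, 2.75 and 1.77 FPKM). Their place among the tested genes thus depends on the difference itself. Of 12 conventional dendritic cell markers 5 fell and 7 did not pass (median -1.02), with a summed level of 104 to 194 FPKM in vehicle and 41.6 to 79.7 FPKM in tamoxifen tumors. Batf3, a transcription factor of cross-presenting dendritic cells, fell by 1.78 on the log2 scale, with means of 15.8 ± 3.07 and 3.91 ± 1.03 FPKM (limma adjusted p = 0.00653). The receptor gene Clec9a fell by 1.85, with means of 9.73 ± 2.78 and 1.99 ± 0.919 FPKM (adjusted p = 0.00998). Of 11 T and NK cell markers 8 fell and 3 did not pass (median -0.92), with sums of 203 to 285 and 102 to 135 FPKM. Cd3e, part of the T cell receptor, fell by 1.12 on the log2 scale (means of 19.5 ± 2.94 and 8.38 ± 0.475 FPKM, adjusted p = 0.00653). None of 9 macrophage markers passed (median 0.16), with sums of 650 to 968 and 594 to 1299 FPKM. No marker of these 3 lists was at 0 in all libraries, and the part of these cells in the levels of the members was not tested.

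Few epithelial and some endothelial markers rose, while Apol7a, also with a higher mean in tamoxifen tumors, did not pass. All 11 epithelial markers had a positive change, 1 rose and 10 did not pass (median 0.79). Their sum was 2196, 2197, 1432 and 1979 FPKM in vehicle replicates 1 to 4 and 4286, 2726, 2368 and 4558 FPKM in tamoxifen replicates 1 to 4. Tamoxifen replicate 4 was the highest library for this sum and for Apol7a, and vehicle replicate 3 the lowest for both, whereas tamoxifen replicate 1 was high for the markers and not for Apol7a. The keratin gene Krt18 rose, with means of 24.4 ± 5.91 and 79.0 ± 45.6 FPKM (limma adjusted p = 0.0391), a call lost without any 1 of 6 libraries (all but tamoxifen replicates 3 and 4, adjusted p up to 0.109). Of 6 endothelial markers 3 rose and 3 did not pass (median 0.71), with sums of 43.2 to 56.7 and 72.6 to 99.8 FPKM, and the call of Emcn was lost without vehicle replicate 3 or 4, that of Pecam1 without 6 libraries and that of Tek without 7. Scaling to the same total and the replicate block also ended these 3 calls (adjusted p up to 0.0952, 0.168 and 0.23), no filter those of Pecam1, Tek and Krt18, and a covariate for the number range of the sample identifiers that of Tek. No marker of either list was at 0 in all libraries. Their part in the level of Apol7a was not tested.

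**Figure D4:**
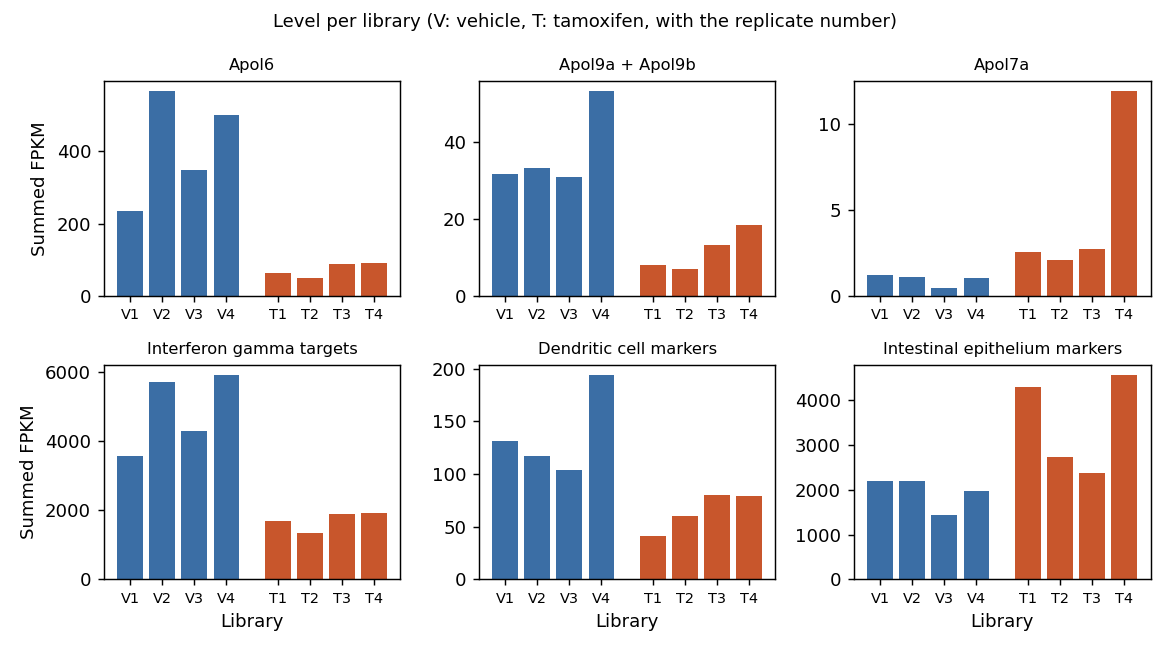
FPKM per library of Apol6, the Apol9a and Apol9b sum and Apol7a (upper row) and summed FPKM of the interferon gamma target, dendritic cell and intestinal epithelium lists (lower row), in vehicle (V) and tamoxifen (T) replicates 1 to 4. Vehicle bars exceed all tamoxifen bars for Apol6, the Apol9 pair, the gamma targets and the dendritic cell markers, and the reverse holds for Apol7a and the epithelial markers.

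A list of apolipoprotein genes outside the L family, most of whose proteins carry lipids in lipoprotein particles or bind them in tissue, was tested alongside. It also includes Apobr, Apoo and Apool, to which that description does not apply. Of 11 tested genes 2 rose (18.2%, beside 2.38% of all tested genes), none fell and 9 did not pass (median 0.41). Apoc2, the cofactor of lipoprotein lipase, rose by 1.87 on the log2 scale, with means of 1.64 ± 0.724 and 8.67 ± 2.46 FPKM (limma adjusted p = 0.0103). Apod, a lipocalin, rose by 2.78, with means of 7.35 ± 2.84 and 61.3 ± 33.6 FPKM (adjusted p = 0.0122). The replicate block ended the call of Apod (adjusted p = 0.0522). Apoc1 measured 3.37 ± 0.968 and 8.53 ± 3.35 FPKM (adjusted p = 0.0547).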

How the data were processed

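RNA sequencing of 8 cecal tumors was used, with groups and replicate numbers from the sample titles. The deposited table gives gene-level FPKM with confidence bounds and a status for each library, per the file headers. STAR 2.3, Cufflinks, Cuffdiff and mm9 are named in the submitters' processing notes. No source used here gives the scaling, the annotation or the handling of reads that fit several genes. Columns were matched by the identifier in each sample description.

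Values with a failed status (178 in all, none in the family) were treated as missing, and rows of one symbol were summed. Of 34586 symbols, 15023 with a mean of at least 1 FPKM and 2 estimates per group were tested. Of the 7 members 5 passed this filter, and Apol7b and Apol7c did not. Groups were compared on log2(FPKM + 1) with limma 3.58.1 in R 4.3.3 (2-sided, mean-variance trend), adjusted by Benjamini-Hochberg over all tested genes with a threshold of 0.05. The fold changes understate those of low genes. In simulated data for 14975 genes of this comparison, 58% of genes changed by 1 and 93% of those changed by 2 on the log2 scale were recovered, and 10 of 161 calls were false.

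The members, the gene lists and the tests were chosen with earlier results of these data known. The genes named are Etv1, all family genes, the nearest in pattern to Apol6 (8), Apol9a and Apol9b (4 each), Ifng and Irf1, the highest genes of the span, and up to 3 genes of smallest p per list. Not all of those genes are described, and 1 other gene of the rule is not reported here. Same-numbered libraries were not taken as pairs. Loci are those of the table, with starts counted from 1. Motifs and shared stretches were counted with Python 3.11.15, and coding sequences (the longest open reading frame) aligned with Biopython 1.88. The part of the plan for protein sequences was not carried out.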

Additional observations from a re-analysis of the deposited data

Results flagged for a closer look

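In 17 of 146 groups of 4 libraries checked, 1 library stood apart. Its gap to the next value was beyond Dixon's critical value for 4 samples, where chance gives about 1 in 20. The groups are not independent, since sums and shares reuse the values of single genes, so the count cannot be judged against that rate. Tamoxifen replicate 4 was the library concerned for Apol7a (11.9 FPKM, next highest 2.71), the sum of the Apol7 members (14.4 FPKM, next 5.79), the share of Apol7a in that sum (82.5%, next 48.0%), Krt18 (147 FPKM, next 61.3), Krt19 (738 FPKM, next 381) and the dendritic cell gene Xcr1 (0.729 FPKM, next 0.424). In the same library Apol6 held the lowest share of the members' sum (73.3%, next 81.1%). Vehicle replicate 4 was highest for Apol9a (31.6 FPKM, next 19.1), the Apol9a and Apol9b sum (53.1 FPKM, next 33.3), Irf1 (225 FPKM, next 86.5) and the endothelial gene Tek (3.21 FPKM, next 2.48).

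Tamoxifen replicate 3 was highest for the tumor gene Gpr20 (136 FPKM, next 80.3) and for the sum of the 6 GIST markers (1355 FPKM, next 984). Vehicle replicate 2 was highest for Apol11a (0.0406 FPKM, the other 3 at 0) and Emcn (13.2 FPKM, next 11.5). Krt19 was lowest in vehicle replicate 3 (156 FPKM, next 226), and H2-Eb2 in tamoxifen replicate 2 (0.888 FPKM, next 2.44).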

How the results depend on the processing

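Under 11 alternatives and 8 omissions of 1 library, the log2 fold changes of Apol6, Apol7a, Apol7e, Apol9a and Apol9b kept their direction, and Apol7a never passed. The number of genes called, 819 with no change of settings, was 228 with libraries scaled to the same total (153 higher and 75 lower, against 358 and 461) and 534 with a minimum mean of 5 FPKM. It was 252 with the replicate block, and 268 to 856 without 1 library. Same-numbered libraries did not deviate together (correlations -0.16 to 0.14, over 0.1 in 1 of 4 pairs, and 3 of 8 libraries closest to their own number). Apol7e missed the threshold with no filter (log2 fold change -0.93, limma adjusted p = 0.0531), with the same total (-0.88, 0.146) and with the replicate block (-0.93, 0.0756), in which Apol9a and Apol9b still passed (both 0.0381). Apol10b missed it with the same total (adjusted p = 0.0667). Without 1 library the log2 fold change ran from -1.79 to -1.39 for Apol9a, -1.79 to -1.38 for Apol9b and -1.07 to -0.85 for Apol7e. With quality weights on the libraries Etv1 passed (log2 fold change -0.81, limma adjusted p = 0.049). The minimum of 5 FPKM left out Apol7a, Apol7e, Apol10b and Apold1. The group means of the members stayed within 1 SD when divided by median-ratio factors, and each member has a single row, so summing rows changed no member. Absolute depth is unknown, so no counting interval can be given for low members such as Apol7b.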
